A study of Mus musculus with 17 samples.

Results

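The comparison described here is between the cerebella of 2 groups of mice in which Atr was intact and in which either the apoptosis effectors Bax and Bak or the tumour suppressor p53 had been deleted. Its members are 7 of the 17 libraries of the series, chosen by genotype label alone. The first group, called Bax/Bak controls, carried Math1-Cre, loxP-flanked Bax on both alleles and a null Bak allele on both chromosomes (n = 4). The second group, called p53 controls, carried Math1-Cre and loxP-flanked p53 on both alleles (n = 3). All 7 animals were C57BL/6 mice at postnatal day 3, all carried Math1-Cre, and none carried loxP-flanked Atr, so each group was the control for an Atr-deleted group of its own background. No library of a mouse without these deletions belongs to the comparison, so a gene that was higher in one group cannot be told apart from a gene that was lower in the other.

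Bax and Bak form the pores in the outer mitochondrial membrane through which cytochrome c leaves the mitochondrion, the step that commits a cell to intrinsic apoptosis. p53 is a transcription factor that accumulates after DNA damage and activates genes of cell cycle arrest, repair and apoptosis, among them Bbc3 (PUMA) and Bax. In the first postnatal week the granule neuron progenitors of the cerebellum divide in the external granule layer under the influence of Sonic hedgehog, and Math1-Cre is active in these progenitors and their descendants. Bax and p53 were therefore deleted in the Math1 lineage, while the null allele removes Bak from every cell.

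The libraries held 42987953 to 100659645 estimated counts, so 1 count corresponded to at most 0.0233 CPM, the unit of all levels here (counts scaled to the library total). Genotype coincided with the animal set: the number in the animal labels began with 100019 (replicates 1 and 2) or 1842 (replicates 3 and 4) in the Bax/Bak controls, and with 1843 (replicate 1) or 1845 (replicates 2 and 3) in the p53 controls. The 2 groups also came from separate deposited tables. Genotype, animal set and table cannot be told apart in any difference given here. The labels name no litters, so p-values measure the spread between these libraries. On the first principal component, which held 45.6% of the variance, all Bax/Bak controls lay on one side (-45.7 to -26.7) and all p53 controls on the other (41.9 to 58.3). The second component (18.1%) separated the number series 100019 from 1842, and the third (13.2%) set replicate 1 of the p53 controls apart from the other two.

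Of 17242 genes tested with edgeR's quasi-likelihood test, 3370 (19.5%) were called at a Benjamini-Hochberg adjusted p below 0.05. In the Bax/Bak controls 1664 genes (9.65%) were higher and 1706 (9.89%) were lower. Only 154 of the higher genes and 200 of the lower genes differed by more than 2-fold. The count depended on the p53 controls: without replicate 2 it was 1790, and without replicate 3 it was 1710. In 3337 of the 3370 called genes the groups did not overlap, so a lack of overlap adds little to a call. Genes of short transcripts, which include most genes of ribosomal proteins, formed one side of the difference. Among genes of at most 50% shared sequence and a mean of at least 2 CPM, the tenth with the shortest transcripts (204 to 1315.5 bases) had a median log2 fold change of -0.24 in the Bax/Bak controls, and 43.1% of its genes were called. The tenth with the longest transcripts (6401.7 bases and over) had a median of 0.19, with 31.3% called.

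Base composition followed the groups as well. The tenth of genes with the lowest GC content (31.9% to 42.2%) had a median log2 fold change of 0.26, and the tenth with the highest (58.3% to 75.9%) had -0.12. By library, the shortest transcripts were below the 7-library mean in every Bax/Bak control (median deviation -0.14 to -0.06 on the log2 scale) and above it in every p53 control (0.12 to 0.18). When the length and GC trend of each library was removed before the same test, 1288 genes (7.47%) were called, 579 (3.36%) higher and 709 (4.11%) lower in the Bax/Bak controls, of which 992 were called in the same direction by both fits. Counts from this corrected fit are given with the gene groups below. The part of length and GC content in any single gene's difference was not tested.

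**Figure D1:**
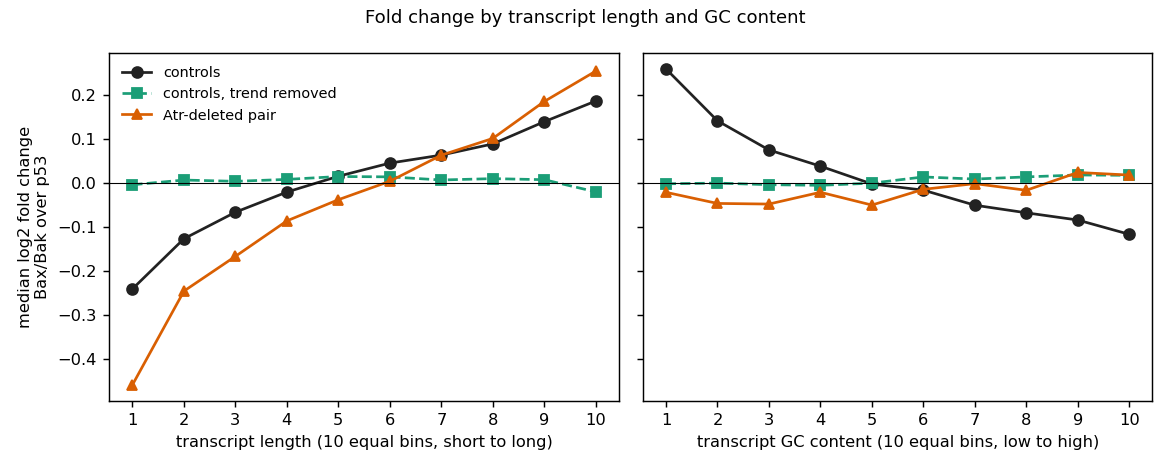
Median log2 fold change (Bax/Bak over p53, y axis) of genes in 10 equal bins of transcript length (left) and GC content (right), for the controls, for the controls after removal of the trend, and for the Atr-deleted animals of the same backgrounds. The line of the controls climbs from -0.24 to 0.19 with length and falls from 0.26 to -0.12 with GC content, and the line of the Atr-deleted pair climbs from -0.46 to 0.26 with length while staying between -0.05 and 0.02 over GC content.

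The engineered genes were read first, since they check the labels. Bak1, which encodes Bak (chromosome 17, 27019810 to 27029009, GRCm38), was at 0.254, 0.558, 0.235 and 0.401 CPM in the 4 Bax/Bak controls and at 37.2, 39.8 and 41.1 CPM in the p53 controls. The residue was 0.92% of the p53 control mean, and the groups were far apart. Bax (chromosome 7, 45461697 to 45466898) was at 34.9, 30.7, 33.0 and 36.4 CPM against 67.4, 63.8 and 66.3 CPM. The Bax/Bak controls thus held 51.2% of the Bax mRNA of the p53 controls in whole cerebellum, and no library of one group reached the other. In bulk tissue, fewer cells with a transcript and less transcript per cell cannot be told apart.

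Trp53, which encodes p53 (chromosome 11, 69580359 to 69591873), reached 62.2, 66.5, 71.8 and 72.3 CPM in the Bax/Bak controls but 37.5, 35.5 and 38.8 CPM in the p53 controls. The p53 controls kept 54.7% of the other group's level. Atr (chromosome 9, 95857597 to 95951781), which is intact in both groups, averaged 43.0 ± 3.97 CPM (SD, n = 4) and 36.7 ± 1.11 CPM (SD, n = 3), and the lowest Bax/Bak control (38.03 CPM) stood just above the highest p53 control (37.97 CPM). Two-sided exact permutation of the 7 libraries gave p = 0.0286 for Bak1, Bax and Trp53, the smallest value 4 against 3 libraries allow, or 0.0381 adjusted over the 4 genes. For Atr the exact p was 0.0571. In these 3 deleted genes the order of the groups thus followed the genotype labels.

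**Figure D2:**
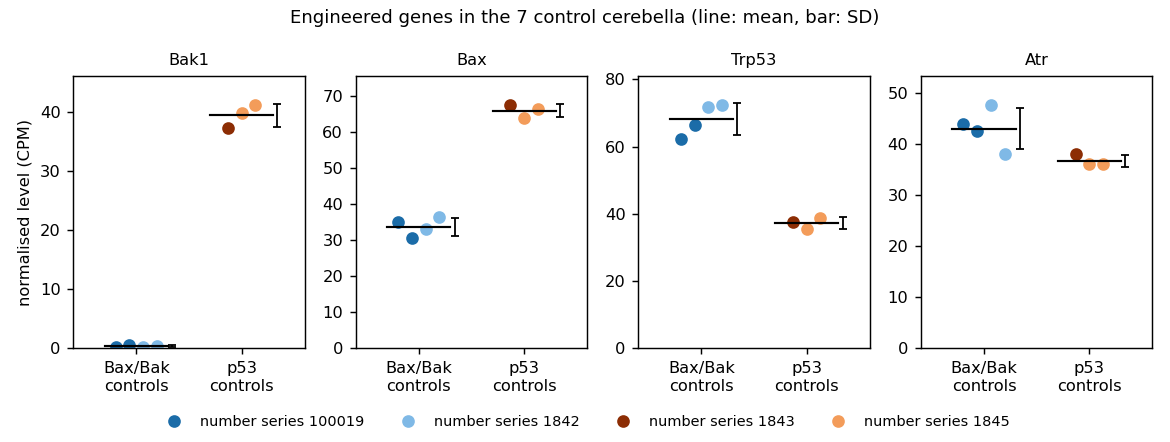
Level of the 4 engineered genes (y axis, CPM) in each of the 7 control cerebella, coloured by the number series of the animal label, with the group mean and SD. Bak1 is below 1 CPM in the Bax/Bak controls, Bax and Trp53 each sit near 50% of the other group where they are loxP-flanked, and the groups nearly touch for Atr.

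At the level of transcripts, both Bak1 isoforms differed. The coding transcript Bak1-202 was at 0.23 to 0.548 CPM against 16.2 to 19.4 CPM, and Bak1-201, annotated as subject to nonsense-mediated decay, was listed at 0 in all 4 Bax/Bak controls against 20.5 to 23.2 CPM. Bax was carried by a single transcript. The main coding transcripts of Trp53 were both lower in the p53 controls: Trp53-203 was at 25.8 to 39.1 CPM in the Bax/Bak controls and 14.5 to 21.3 CPM in the p53 controls, and Trp53-201 at 21.3 to 32.9 and 7.79 to 14.6 CPM.

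Genes that p53 activates were examined next, since p53 was intact in one group and deleted from the progenitors of the other. Of 46 known targets tested, 10 were called higher and 5 lower in the Bax/Bak controls, against 9.65% and 9.89% of all genes, and the median log2 fold change of the list was 0.03 (0.00 over all genes). The higher targets included genes of cell death, stress response and autophagy. The lower ones were Bax, which is itself deleted in this group, Abhd4, Cdkn1a, Ptp4a3 and Plk3. The corrected fit called 6 higher and 3 lower.

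Bbc3 (PUMA), the BH3-only protein that binds the antiapoptotic Bcl-2 proteins, was at 25.1, 24.9, 30.1 and 30.2 CPM in the Bax/Bak controls and at 14.8, 11.3 and 12.2 CPM in the p53 controls. Every Bax/Bak control exceeded every p53 control, with a log2 difference of 1.11 ± 0.12 (SE; edgeR adjusted p = 0.00116). Trp53inp1, a stress protein that promotes p53 activity and autophagy, was at 85.8 to 106 CPM against 46.7 to 55.6 CPM (log2 fold change 0.91 ± 0.10 SE, adjusted p = 0.00117). Sesn2, a sestrin that restrains mTORC1, stood at 23.3 to 27.4 CPM against 12.8 to 16.1 CPM (0.79 ± 0.10 SE, adjusted p = 0.00202). Eda2r, a receptor of the tumour necrosis factor family, stood at 16.4 to 18.8 CPM against 11.2 to 11.8 CPM (0.63 ± 0.09 SE, adjusted p = 0.00268). These 4 genes were also called higher after the length and GC trend was removed.

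The remaining higher targets changed less. Ddit4 (REDD1), an inhibitor of mTORC1, had a log2 fold change of 0.49, Rb1cc1 (FIP200), a scaffold of autophagy initiation, 0.45, Rrm2b, a ribonucleotide reductase subunit, 0.45, Zmat3, an RNA-binding protein, 0.41, Ccng1 (cyclin G1) 0.37 and Btg2, an antiproliferative factor, 0.20. Of these, Ddit4 and Zmat3 were called in the corrected fit and Rb1cc1 (log2 fold change 0.09), Rrm2b (0.15), Ccng1 (0.15) and Btg2 (0.22) were not. Mdm2, the ubiquitin ligase that limits p53, was at 53.7 to 63.5 CPM against 46.8 to 53.8 CPM and was not called (log2 fold change 0.21 ± 0.08 SE, edgeR adjusted p = 0.0894). Aen, Sesn1, Fas and Phlda3 did not pass the test either.

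Cdkn1a (p21), the cyclin-dependent kinase inhibitor through which p53 halts the cell cycle, was at 56.4, 60.8, 47.3 and 52.4 CPM in the Bax/Bak controls and at 74.1, 79.9 and 71.0 CPM in the p53 controls. It was thus lower where p53 was intact, without overlap (log2 fold change -0.47 ± 0.09 SE, edgeR adjusted p = 0.00741, and 0.053 in the corrected fit). Abhd4, a lipid hydrolase, was at 72.8 to 83.3 CPM against 120 to 142 CPM (-0.70 ± 0.07 SE, adjusted p = 0.00108, and 0.00252 in the corrected fit). Ccng1 and Cdkn1a are 2 classical targets that lay on opposite sides of this comparison, and they were chosen for the sequences below after their values were seen.

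The promoters of both genes hold a match to the p53 element, a pair of decamer half-sites. The stretches below are from RefSeq promoters (GRCm38.p6) and are written 5′ to 3′ on the strand of the gene, with the half-sites of the pair with fewest mismatches in capitals.
Ccng1, chr11:40755447-40755496, minus strand: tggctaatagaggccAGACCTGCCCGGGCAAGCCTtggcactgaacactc
Cdkn1a, chr17:29090891-29090952, plus strand: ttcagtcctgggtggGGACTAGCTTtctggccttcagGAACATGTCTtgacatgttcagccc
The Ccng1 element lies 195 to 176 bases before the annotated start, with 1 mismatch and no spacer. The Cdkn1a pair in capitals lies 73 to 42 bases before its start, with 0 mismatches and a 12-base spacer. Directly after its second half-site stands a further decamer in lower case, tgacatgttc, with 1 mismatch. The second half-site thus also forms a pair with no spacer, and which pair p53 binds was not tested. In all, 8.36% of 32851 promoters of the same length held an exact p53 half-site (its decamer reads the same on both strands), and 0.627% held a pair with at most 1 mismatch and a spacer of at most 13 bases. Of 36 targets with a promoter entry, 10 held an exact half-site, most of them in genes that were not called. It was found in 1 of 6 called higher (Ccng1) and 3 of 4 called lower (Abhd4, Bax and Cdkn1a). Bax is itself deleted in the Bax/Bak controls, and a relation between half-sites and direction was not tested.

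**Figure D3:**
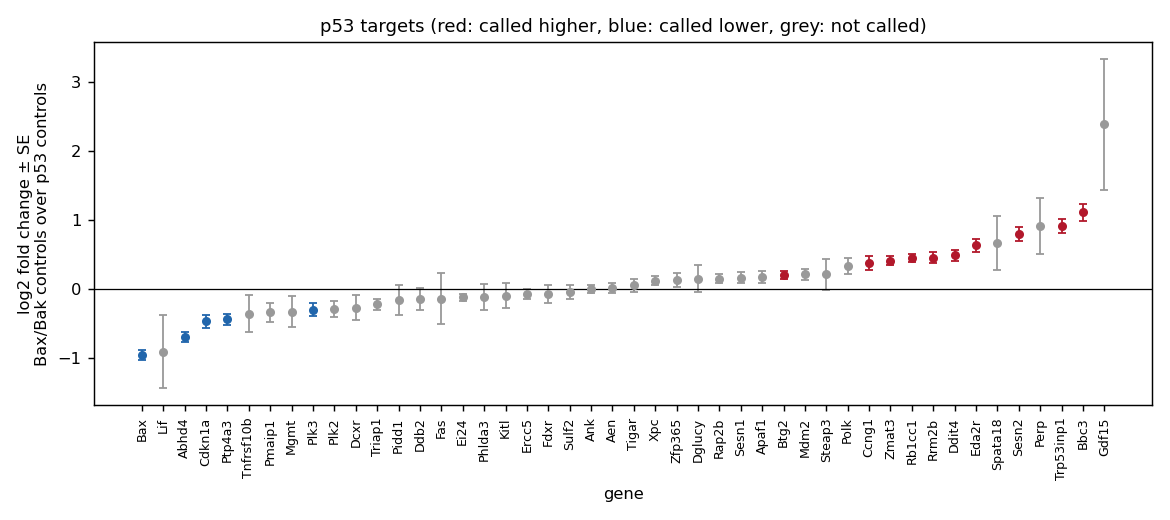
Log2 fold change with its SE (y axis, Bax/Bak controls over p53 controls) of 46 p53 targets in order of size. The called genes lie on both sides of 0, from Bax at -0.96 to Bbc3 at 1.11, and the grey gene at the far right, Gdf15, was not called and has a wide error.

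Among regulators of p53, 2 of 18 were higher and 1 lower (16.7% called, against 19.5% of all genes), and 1 and 1 in the corrected fit. Trp73 (p73), a p53 relative, was at 8.6, 7.75, 12.2 and 12.9 CPM in the Bax/Bak controls and 3.93, 6.53 and 5.12 CPM in the p53 controls (log2 fold change 1.0 ± 0.24 SE, edgeR adjusted p = 0.0198). This call was lost without p53 control replicate 1 or 3 (largest adjusted p = 0.0733). The checkpoint kinase genes went opposite ways: Chek1 (Chk1), which acts below Atr, was higher by 0.34 and Chek2 (Chk2) lower by 0.35 on the log2 scale. Chek1 was not called in the corrected fit, nor without p53 control replicate 2 or 3 (largest adjusted p = 0.0677), and the Chek2 call was lost whichever library was left out (largest adjusted p = 0.0778).

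In the wider Bcl-2 family and caspases, 6 of 28 genes (21.4%) were called higher and 3 (10.7%) lower in the Bax/Bak controls, against 9.65% and 9.89% of all genes, so the share of lower genes was near the background. Hrk (Harakiri), a BH3-only protein of neurons, was at 48.6, 51.0, 57.3 and 61.1 CPM in the Bax/Bak controls and 36.7, 28.0 and 27.8 CPM in the p53 controls, so the log2 difference was 0.82 with an SE of 0.12 (edgeR adjusted p = 0.00339). Hrk and Bbc3 were thus both higher in the group without Bax and Bak. Cycs (cytochrome c) was higher by 0.36, Xiap, a caspase inhibitor, by 0.37, and the antiapoptotic genes Bcl2l2 (Bcl-w) by 0.26 and Mcl1 by 0.23. Diablo (Smac), which is released from mitochondria and antagonises Xiap, was higher by 0.21. Lower genes were Bok, a relative of Bax and Bak (-0.42 ± 0.09 SE), Bid (-0.36 ± 0.08 SE) and the mitochondrial protease gene Htra2 (-0.30 ± 0.08 SE). When near-identical copies were summed, Cycs was no longer called (log2 fold change 0.07, edgeR adjusted p = 0.474). The corrected fit called Hrk, Bcl2l2 and Diablo higher and Bid lower. The Bid call was lost without p53 control replicate 2 (adjusted p = 0.0564).

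Microglia, the phagocytes of the brain, gave a one-sided pattern. Of 20 marker genes, 12 (60%) were called lower in the Bax/Bak controls and 0 higher, against 9.89% and 9.65% of all genes, and the median log2 fold change was -0.67. The summed level of the list was 193 to 244 CPM in the Bax/Bak controls and 283 to 329 CPM in the p53 controls, without overlap. The corrected fit called 9 lower (45.0%, against 4.11% of all genes) and 0 higher, with a median of -0.59. DESeq2, limma-voom and an unadjusted edgeR p below 0.05 each gave 12 lower and 0 higher as well, and leaving out single libraries gave 10 to 12 lower genes. Of all 17242 genes, DESeq2 called 2111 lower and limma-voom 1825 lower. An unadjusted edgeR p below 0.05 was met by 5901 of them in either direction. None of the markers was at 0 in any library.

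Trem2, a lipid-sensing receptor with the largest difference of the list, was at 3.39, 1.97, 2.64 and 2.94 CPM in the Bax/Bak controls and 7.01, 6.67 and 7.67 CPM in the p53 controls (log2 fold change -1.38 ± 0.19 SE, edgeR adjusted p = 0.0027). Tyrobp (DAP12), its signalling partner, was lower by 0.97 and Fcer1g, another signalling adaptor, by 1.07 on the log2 scale. C1qb, a chain of the complement initiator C1q, was at 9.68 to 12.7 CPM against 19.5 to 22 CPM (-0.94 ± 0.11 SE, adjusted p = 0.00148). The chains C1qa (-0.77) and C1qc (-0.72) were lower as well. In the corrected fit Fcer1g (adjusted p = 0.0513), Ctss (0.0672) and C1qa (0.201) were not called.

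Cx3cr1, the fractalkine receptor, was lower by 0.64 and Aif1 (Iba1) by 1.04 on the log2 scale. Several identity genes of resting microglia were not called: P2ry12 was at 9.31 to 12.5 CPM against 9.03 to 11.7 CPM, Tmem119 at 2.56 to 4.84 against 2.71 to 3.93 CPM, Csf1r at 22.7 to 40.2 against 31.6 to 38.2 CPM and Fcrls at 14.5 to 16.1 against 13.3 to 14.7 CPM. Spp1 (osteopontin), a secreted protein that was not on the list, was at 12.8, 13.3, 18.1 and 18.1 CPM against 66.5, 42.9 and 49.0 CPM, a log2 fold change of -1.76 ± 0.19 (SE, adjusted p = 0.00163).

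Markers of granule neurons, the main descendants of the Cre-expressing progenitors, were called higher for 6 (20%) and lower for 3 (10%) of 30 genes, against 9.65% and 9.89% of all genes, with a median log2 fold change of 0.25. The corrected fit called 3 higher and 2 lower, with a median of 0.18. Neurod1, a transcription factor of granule neuron differentiation, was at 390, 399, 616 and 594 CPM in the Bax/Bak controls and 217, 231 and 225 CPM in the p53 controls (log2 fold change 1.16 ± 0.18 SE, edgeR adjusted p = 0.00694). The number series differed within the Bax/Bak controls: replicates 1 and 2 were lower than replicates 3 and 4 (series 100019 over 1842, -0.62, adjusted p = 0.00365), and even the lower pair exceeded every p53 control. Etv1 was at 39.6 to 49.3 CPM against 27.5 to 29.3 CPM, and Kcnd2, a potassium channel, at 116 to 137 CPM against 87.6 to 92.8 CPM.

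Gabra6, the GABA-A receptor subunit of mature granule neurons, was at 1.96, 2.59, 11.9 and 10.5 CPM in the Bax/Bak controls and 1.22, 1.23 and 0.773 CPM in the p53 controls. Replicates 3 and 4, of number series 1842, carried most of this difference, and the call (log2 fold change 2.65 ± 0.74 SE, adjusted p = 0.0482) was lost in 5 of the 7 fits that left out 1 library, with an adjusted p of up to 0.155, and in the corrected fit. Cbln3 (0.96) and Zic1 (0.41) were higher, while 3 cytoskeletal and growth cone genes were lower: Tubb3 (-0.34), Gap43 (-0.37) and Mapt (-0.30). Of the genes named here the corrected fit called Neurod1, Etv1 and Kcnd2 higher and Mapt lower. Between the number series, 8 of the 30 genes were lower in series 100019 and 0 higher, against 3.18% of all genes called in either direction.

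Genes of the Sonic hedgehog pathway and of granule progenitors showed 4 higher and 1 lower of 22, a share of 22.7% near the 19.5% of all genes, and 3 higher and 1 lower in the corrected fit. Cxcr4, the chemokine receptor that holds progenitors under the meninges, was at 62.3, 66.1, 58.5 and 60.2 CPM in the Bax/Bak controls and 91.3, 104 and 104 CPM in the p53 controls (log2 fold change -0.69 ± 0.07 SE, edgeR adjusted p = 0.000713). Sfrp1, a secreted Wnt modulator, was at 195 to 236 CPM against 114 to 151 CPM (0.67 ± 0.10 SE, adjusted p = 0.0036). Ccnd2 (cyclin D2) was higher by 0.42, Nhlh1 by 0.70 and Insm1 by 0.41. Ccnd2 was not called in the corrected fit (adjusted p = 0.0661), and Nhlh1 was not called without any 1 of the p53 controls (up to 0.0739). The core readouts of the pathway were not called: Gli1 had a log2 fold change of -0.24 (adjusted p = 0.0887), Atoh1 of 0.07 (0.602) and Mycn of 0.03 (0.835).

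Cell cycle genes were counted by phase. Of 49 genes of S phase, 3 (6.12%) were called higher and 11 (22.4%) lower in the Bax/Bak controls (median log2 fold change -0.10). Of 41 genes of G2 and mitosis, 14 (34.1%) were higher and 4 (9.76%) lower (median 0.14). Over all genes the shares were 9.65% higher and 9.89% lower, and the difference between the phases was not tested. Rfc3, a clamp loader subunit, was at 31.2 to 35.0 CPM against 42.9 to 43.4 CPM. Anln (anillin), a protein of cytokinesis, was at 47.9, 46.7, 52.4 and 52.5 CPM in the Bax/Bak controls and 32.9, 34.8 and 35.0 CPM in the p53 controls (0.54 ± 0.07 SE, edgeR adjusted p = 0.00172). Top2a was at 408 to 445 CPM against 345 to 372 CPM, a call lost without p53 control replicate 3 (adjusted p = 0.0522).

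Transcript length ran along with these calls. The higher G2 and mitosis genes include the long transcripts Cenpf (11065 bases), Mki67 (10061 bases) and Cenpe (7892 bases), and the 4 lower ones (Cdca3, Cdk1, Cenpa and Birc5) have transcripts of 1226 to 1666 bases. After the trend was removed, 7 G2 and mitosis genes were higher and 1 lower, and 1 S phase gene was higher and 4 lower. Anln (0.41), Ckap2l (0.25), Kif2c, Gtse1 and Plk1 remained higher in that fit, whereas the log2 fold changes of Mki67 (0.02), Cenpf (0.07) and Top2a (0.06) were near 0. Ribosomal protein genes, a group chosen after the data were seen, were lower for 48 and higher for 2 of 60 (median -0.39, median transcript 788 bases), and for 11 and 2 after the correction (median -0.10).

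For most other cell types of the cerebellum the share of called markers was near or below the 19.5% of all genes. For astrocytes and Bergmann glia, 3 of 20 markers were higher and 2 lower (25.0% called), and 1 and 2 in the corrected fit. Aqp4 (aquaporin 4) was at 486 to 735 CPM against 208 to 353 CPM, and Fabp7, the fatty acid binding protein of Bergmann glia, was lower by 0.50 on the log2 scale. The Aqp4 call was lost in 5 of the 7 fits that left out 1 library (adjusted p up to 0.0643) and in the corrected fit. In the oligodendrocyte lineage 2 of 18 were higher, Gpr17 (1.02) and Ugt8a (0.96), and 2 lower, the transcription factors Olig1 (-0.50) and Olig2 (-0.30), a share of 22.2%, with 1 and 1 in the corrected fit. The median log2 fold change of this list was 0.54 (0.61 in the corrected fit), and 14 of the 18 genes were above 0. Its summed level was 1160, 1200, 1930 and 1730 CPM in the Bax/Bak controls and 790 to 1170 CPM in the p53 controls. Ugt8a lost its call in 5 of the 7 fits without 1 library (up to 0.122) and Olig2 in 4 (up to 0.0861), and neither was called in the corrected fit. Of 11 genes that mark deep nuclei or unipolar brush cells 3 were higher and 1 lower (36.4%), and 2 and 1 in the corrected fit. The lower gene was Eomes (Tbr2), the marker of unipolar brush cells, at 40.9 to 50.9 CPM against 60.4 to 81.3 CPM, and the higher ones included Slc17a6 (0.41) and Olig3 (1.56). The Olig3 call was lost in 5 of the 7 fits without 1 library (adjusted p up to 0.0974).

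Among 13 inhibitory interneuron genes 1 was higher and 1 lower (15.4%, against 19.5% of all genes), and 0 and 1 in the corrected fit. The higher gene was Slc6a5, the glycine transporter of inhibitory neurons (0.42, adjusted p = 0.0285), and its call was lost in 6 of the 7 fits without 1 library (adjusted p up to 0.092). Npy (neuropeptide Y) was at 1.43 to 1.81 CPM in the Bax/Bak controls against 4.46 to 5.74 CPM in the p53 controls, so the log2 difference was -1.56 with an SE of 0.18 (edgeR adjusted p = 0.00131). Of 19 Purkinje cell genes 2 were higher (Itpr1, 0.42, and Calb1, 0.29) and 1 lower (Skor2, -0.67), a share of 15.8%, and the corrected fit called 0 higher and 1 lower. Itpr1 and Skor2 were not called in the corrected fit, where Calb1 had a log2 fold change of -0.11. Without 1 library the Skor2 call was lost in 4 of 7 fits (adjusted p up to 0.0839) and the Calb1 call in 3 (up to 0.0893). Endothelial and pericyte markers had 1 of 20 called in either fit, the organic anion transporter gene Slco1a4, at 9.87 to 21.2 CPM against 3.91 to 5.52 CPM.

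Markers of neighbouring tissue varied within the Bax/Bak controls. Choroid plexus genes summed to 4360 and 2110 CPM in replicates 1 and 2 (series 100019), to 173 and 168 CPM in replicates 3 and 4 (series 1842) and to 159 to 540 CPM in the p53 controls. Ttr (transthyretin), the defining secreted protein of the choroid plexus, was at 3550, 1680, 22.1 and 22.4 CPM in the Bax/Bak controls and 15.5, 336 and 64.0 CPM in the p53 controls. Meningeal genes summed to 2380 and 3130 CPM in series 100019, to 843 and 952 CPM in series 1842 and to 566 to 1480 CPM in the p53 controls, although the labels state that meninges were removed. With edgeR no gene of either list was called between the genotypes (DESeq2 called 1 of each higher, limma-voom 0, and 1 meningeal gene had an unadjusted edgeR p below 0.05), while 7 of 13 choroid plexus genes and 3 of 16 meningeal genes were called higher in series 100019 than in 1842. Both lists still leaned towards the Bax/Bak controls. The log2 fold change was above 0 for 12 of 13 choroid plexus genes (median 2.4) and 15 of 16 meningeal genes (median 0.75).

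Over all genes, 548 (3.18%) differed between the number series of the Bax/Bak controls, 399 higher and 149 lower in 100019. The part of this tissue in the differences between genotypes was not tested. With the Bax/Bak controls of series 1842 alone 3145 genes were called between the genotypes, and with those of series 100019 alone 2432. Brainstem, erythroid and sex-linked genes also had 0 called genes with edgeR, DESeq2 and limma-voom, and 1 brainstem gene had an unadjusted edgeR p below 0.05. The Y-linked gene Eif2s3y was near 0 in replicate 1 of the Bax/Bak controls (0.0691 CPM) and at 50.9 to 77.6 CPM in the other 6 libraries.

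**Figure D4:**
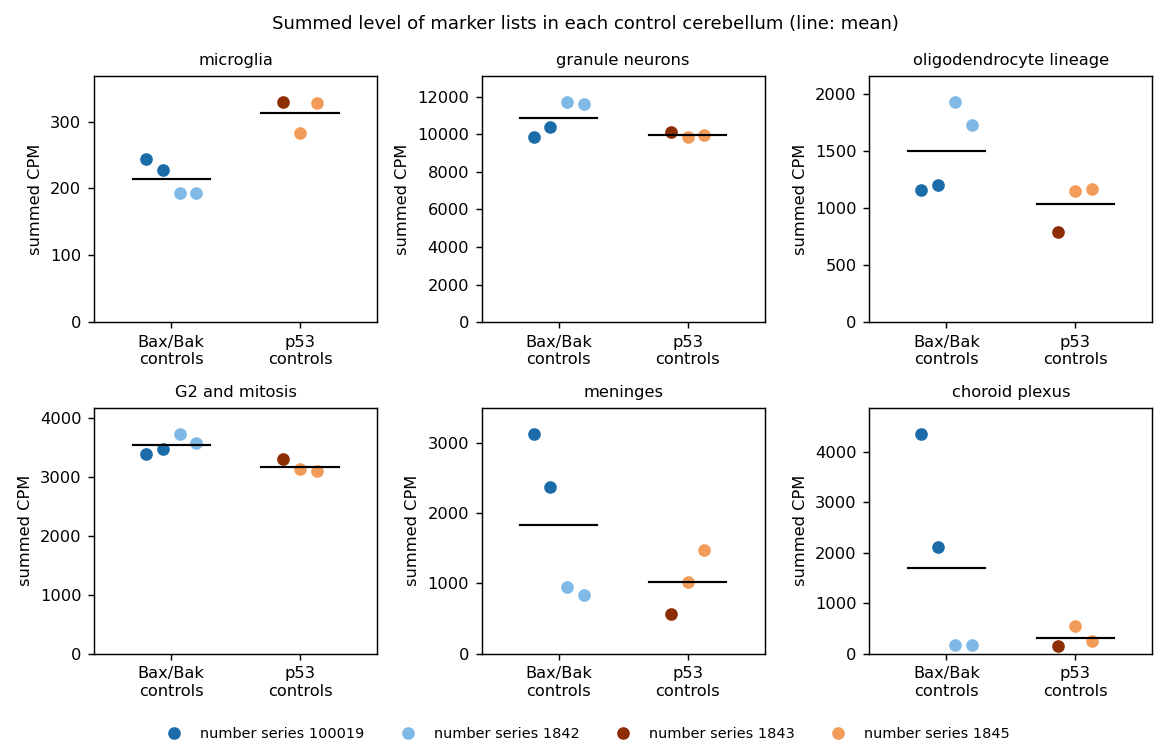
Summed level (y axis, CPM) of 6 marker lists in each control cerebellum, coloured by number series, with the group mean as a line. Microglial genes are lower in all 4 Bax/Bak controls (193 to 244 against 283 to 329 CPM), and choroid plexus genes are high in the 2 libraries of series 100019 only (4360 and 2110 CPM).

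Among metabolic and signalling lists, cholesterol synthesis and uptake had 5 of 21 genes (23.8%, against 9.65% of all genes) higher and 0 lower with edgeR. DESeq2 gave 7 higher and 0 lower, against 2408 and 2111 of all 17242 genes. An unadjusted edgeR p below 0.05 gave 9 and 0, against 5901 of all genes in either direction. The corrected fit called 6 higher (28.6%, against 3.36% of all genes). Idi1, an isomerase of the pathway, was at 179, 193, 187 and 179 CPM in the Bax/Bak controls and 137, 111 and 114 CPM in the p53 controls (log2 fold change 0.61 ± 0.08 SE, edgeR adjusted p = 0.00196). Stard4, a sterol transfer protein (0.52), Hsd17b7 (0.63), Sc5d (0.56) and Hmgcs1, a synthase of the pathway (0.36), were higher too. Interferon response genes had 3 of 34 higher, a share of 8.82% just under the 9.65% of all genes: Stat2 (0.63), Mx1 (1.04) and Gbp2 (1.0). Immediate early genes had 3 of 18 higher, Nr4a2 (0.88), Atf3 (0.83) and Jun (0.41), and 1 lower, Jund (-0.38), a share of 22.2% near the 19.5% of all genes. The Gbp2, Atf3 and Jun calls were each lost in 4 or more of the 7 fits that left out 1 library, and Jund was lost without Bax/Bak control replicate 2 or p53 control replicate 3 (largest adjusted p = 0.0696). Sc5d, Gbp2, Jun and Jund were not called in the corrected fit.

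MHC and antigen processing (1 higher and 1 lower of 22, and 1 and 0 in the corrected fit) and the integrated stress response (1 and 1 of 21 in both fits) were below the background share of 19.5%. Of 10 tested genes known to vary between inbred strains, Mx1 was higher, Wdfy1 was lower (-0.74 ± 0.08 SE) and Ifi202b was called higher. This was a share of 30%, above the 19.5% of all genes. The corrected fit called 3 higher and 1 lower, against 3.36% and 4.11% of all genes, with Alad (0.51) among the higher ones. Ifi202b, an interferon-inducible gene, was at 0.415, 0.826, 0.166 and 0.0902 CPM in the Bax/Bak controls and at 0 in all 3 p53 controls, and its call was lost without p53 control replicate 2 or 3 (largest adjusted p = 0.0532). Wdfy1 was at 62.9 to 66.2 CPM in the Bax/Bak controls against 96.3 to 122 CPM in the p53 controls. All 7 animals are labelled C57BL/6. Of 13 mitochondrially encoded genes 1 was called, mt-Nd3, at 359 to 511 CPM against 34.2 to 100.4 CPM, with 98.1% of its words shared with another gene. When near-identical copies were summed, its log2 fold change went from 2.76 to 0.51 and the call was lost (edgeR adjusted p = 0.261).

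Single genes outside these lists differed more. Among genes with a standard symbol, a mean of at least 1 CPM, at most 50% shared sequence and no overlap between groups, the 15 largest rises in the Bax/Bak controls ran from Erich5 (3.28) to Slco1a4 (1.46). Pappa, a protease that releases insulin-like growth factors, was at 8.67, 9.27, 11 and 10.4 CPM in the Bax/Bak controls and 2.88, 2.73 and 3.27 CPM in the p53 controls (log2 fold change 1.74 ± 0.15 SE, edgeR adjusted p = 0.000358). Gabra2, a GABA-A receptor subunit, was at 58.2 to 69.0 CPM against 16.4 to 32.5 CPM. Aldh1a1, which makes retinoic acid, was at 12.6 to 15.8 CPM against 1.80 to 5.86 CPM, and Cdh3 (P-cadherin) at 3.78 to 8.11 CPM against 0.355 to 1.26 CPM. Col4a3, a basement membrane collagen (1.95), Acvr1c, an activin receptor (1.77), Prss41 (1.77), Ccr1 (1.75), Neb (1.61), Ptgdr (1.54), Matn2 (1.53) and Hhatl (1.49) completed this set with Gabra6. Hhatl lost its call without any 1 of the p53 controls (adjusted p up to 0.063), Ptgdr without Bax/Bak control replicate 1 or 2 or p53 control replicate 3 (up to 0.0744), Ccr1 without p53 control replicate 2 (0.0571) and Neb without replicate 3 (0.063). Ccr1 and Ptgdr were not called in the corrected fit.

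The 15 largest falls ran from Ftl1 (-8.11) to Pou4f2 (-1.60) and included Bak1. Galnt15, a glycosyltransferase, was at 5.67, 4.49, 5.02 and 5.76 CPM in the Bax/Bak controls and 22.1, 15.3 and 21.6 CPM in the p53 controls (-1.91 ± 0.15 SE, adjusted p = 0.000244). Mrpl27, a mitochondrial ribosomal protein, was at 11 to 12 CPM against 42.5 to 44.2 CPM. Myo7a, an unconventional myosin, was at 1.47 to 2.72 CPM against 13.1, 3.08 and 14.6 CPM, with replicate 2 of the p53 controls close to the other group, and its call was lost without Bax/Bak control replicate 3 or p53 control replicate 3 (largest adjusted p = 0.0607). The neuropeptide genes Tac2 (-2.01) and Cartpt (-1.70) were lower in all 4 Bax/Bak controls, as were Samd11 (-1.98), Spp1 (-1.76), Dkkl1 (-1.68), Wdr49 (-1.62) and Sfn (-1.62). The call was lost in 5 of the 7 fits without 1 library for Wdr49 (adjusted p up to 0.0899), in 3 for Pou4f2 (up to 0.0802) and without p53 control replicate 3 for Sfn (0.0528). Pou4f2 was not called in the corrected fit (0.0516).

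Ftl1, the ferritin light chain that stores iron, gave the largest fall and lies beside Bax (chromosome 7, 45457944 to 45459884). It was at 3.00, 2.66, 2.70 and 3.09 CPM in the Bax/Bak controls and 829, 763 and 779 CPM in the p53 controls. Its processed pseudogene Ftl2-ps on chromosome 4 was at 72.6 to 79.2 CPM in the Bax/Bak controls and 0.0446 to 0.113 CPM in the p53 controls, so counts stood on different near-identical copies in the 2 groups.
Summed over all 4 near-identical ferritin genes, the level was 84.6 to 98.4 CPM in the Bax/Bak controls and 763 to 830 CPM in the p53 controls, so the family sum was also lower (log2 fold change -3.11 ± 0.06 SE, edgeR adjusted p = 1.49e-08). With the Atr-deleted libraries included, the sum was 74.6 to 99.3 CPM in the 9 Bax/Bak libraries and 394 to 1050 CPM in the 7 deep p53 libraries. Hmga1, a chromatin protein on chromosome 17 near Bak1, was at 24.6 to 30.1 against 148 to 155 CPM, while its copy Hmga1b was at 52.9 to 67.3 against 0 to 0.156 CPM, and their sum was lower by 0.76 on the log2 scale. Rpl26, near Trp53, was lower by 2.40 alone and its family by 0.50. For Ncoa4, the receptor of ferritin autophagy, the gene alone was lower by 2.32, but the sum with its pseudogene Gm6768 was 149 to 170 CPM against 143 to 155 CPM (0.09 ± 0.06 SE, adjusted p = 0.312).

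Shared sequence marked many of the largest differences. Genes that share more than 50% of their 31-base words with another gene were 1341 of the 17242 tested, and 130 of the 354 called genes over 2-fold and 61 of the 91 over 8-fold. For these genes the division of reads between copies, done separately in the 2 tables, cannot be told apart from a change in transcript level. The same holds for genes under 50%: Ftl1 (48.8% shared), Ncoa4 (39.5%) and Rpl26 (27.1%) also had counts on different copies. Within the p53 controls the Ncoa4 pseudogene Gm6768 was at 0.128, 65.9 and 0 CPM, so the division also varied inside 1 table.

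Genes around the engineered loci were counted to see whether calls gathered there. Within 10 Mb of Bax, 47 of 176 genes (26.7%) were called, against 19.5% of all genes, and 7.95% of them were called and over 2-fold, against 2.05% of all genes. Within 10 Mb of Bak1, 82 of 405 (20.2%) were called, 63 of them lower, and within 10 Mb of Trp53, 57 of 338 (16.9%), 41 of them lower. Around Atr, which is unmodified in both groups, it was 34 of 122 (27.9%). In the corrected fit the shares were 15.9% near Bax, 9.14% near Bak1, 6.51% near Trp53 and 9.02% near Atr, against 7.47% of all genes.

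Near Bax, Nudt19 was at 16.1 to 19.4 CPM against 31.1 to 45.5 CPM, Dkkl1 at 0.595 to 1.27 CPM against 2.56 to 3.92 CPM, and Spty2d1 at 32.0 to 35.2 CPM against 18.9 to 23.6 CPM. The ribosomal protein genes Rpl13a (-0.74) and Rpl18 (-0.36) lie there too, with Etfb (-0.49) and Slc17a6 (0.41). Near Bak1, Decr2, a peroxisomal reductase, was at 12.2 to 13.6 CPM against 23.6 to 24 CPM (-0.88 ± 0.08 SE, edgeR adjusted p = 0.000395). Metrn (-0.87), Rnps1 (-0.76), Atp6v0c (-0.65), Jpt2 (-0.56), Atat1 (-0.40) and Rps2 (-0.94) were lower as well. Summed with near-identical copies, Rps2 (-0.45), Rnps1 (-0.32) and Atp6v0c (-0.34) were lower by less. Near Trp53, B9d1 was at 9.92 to 13.1 CPM against 21.4 to 24.7 CPM, followed by Wscd1 (-0.53), Tmem256 (-0.51), Traf4 (-0.41) and Spns2 (-0.36). Tmem256, Rpl18 and Etfb were not called in the corrected fit.

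**Figure D5:**
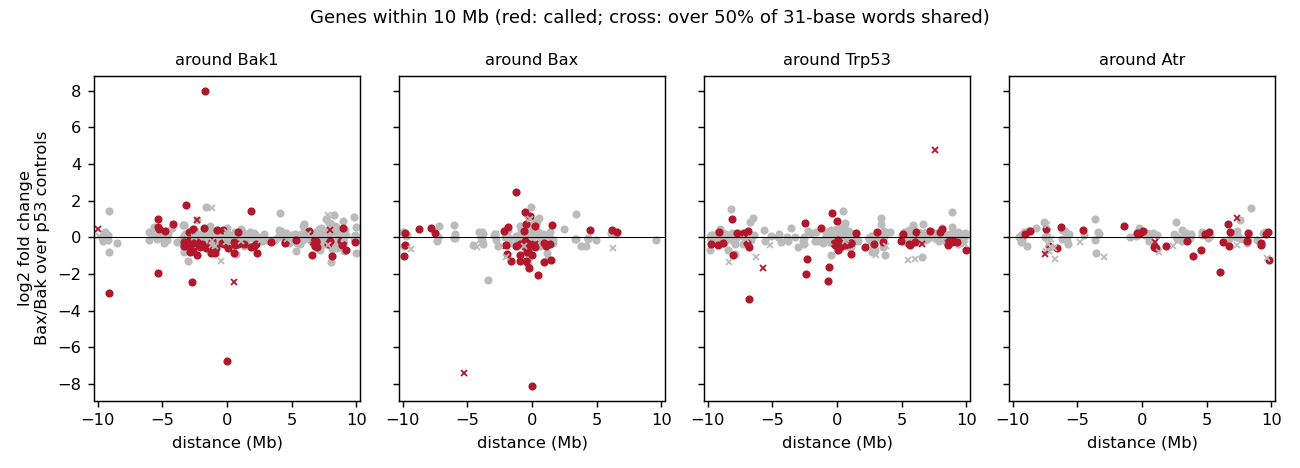
Log2 fold change (y axis, Bax/Bak controls over p53 controls) of genes within 10 Mb of the middle of Bak1, Bax, Trp53 and Atr (x axis, distance in Mb), with called genes in red and genes of over 50% shared words as crosses. The engineered gene itself is drawn at 0 Mb: Bak1 sits at -6.77, and beside Bax the point at -8.11 is Ftl1. The point near 8 in the Bak1 panel is Tpsab1, which is listed at 0 in the p53 controls.

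The same backgrounds were compared once more in the Atr-deleted animals, which share no library with the controls. There, 5 Bax/Bak libraries against 4 deep p53 libraries gave 8222 of 17538 genes called (46.9%). Of 3347 genes called in the controls and tested there, 2045 (61.1%) were called in the same direction and 145 in the opposite one. Genotype and table coincide in that comparison as well, and the trend with transcript length was present there too. Bak1, at 0.282 to 0.602 CPM against 32.5 to 42.4 CPM, Bax, at 24.5 to 35.7 CPM against 55.4 to 73.5 CPM, and Trp53, at 61.7 to 77.3 CPM against 29.3 to 46.3 CPM, kept the order seen in the controls. Atr itself, deleted in these animals by label, was at 35.8 to 43.4 CPM against 34.6 to 41.0 CPM. The control means were 43.0 and 36.7 CPM under a separate scaling. The Atr mRNA level in whole cerebellum thus did not set these animals apart from the controls, and why was not tested.

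The counts of the 2 comparisons stand on different backgrounds: in the Atr-deleted pair 23.1% of all genes were higher and 23.8% lower in the Bax/Bak libraries, against 9.65% and 9.89% in the controls. Differences between the 2 comparisons were not tested. Of the 46 p53 targets, 34 (73.9%) were higher and 4 (8.7%) lower in the Atr-deleted pair (median log2 fold change 0.87), and 10 (21.7%) and 5 (10.9%) in the controls (median 0.03). Bbc3 had a log2 fold change of 2.17 there and 1.11 in the controls, Eda2r 2.67 and 0.63, and Trp53inp1 2.65 and 0.91. In the Atr-deleted pair microglial genes were lower for 9 (45.0%) and higher for 4 (20%) of 20, the latter a share near that pair's background. Genes of G2 and mitosis were higher for 2 and lower for 38 (92.7%) of 41, and S phase genes lower for 47 (95.9%) of 49. Cholesterol synthesis and uptake did not keep its direction: 1 of 21 genes was higher and 10 (47.6%) lower (median -0.19), against 5 and 0 in the controls. Of 18 oligodendrocyte lineage genes, 16 (88.9%) were higher and 0 lower in the Atr-deleted pair. There, 13 of 16 meningeal genes (81.2%) were higher and 0 lower, and 3 of 13 choroid plexus genes (23.1%) were higher and 1 lower.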

How the data were processed

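RNA of mouse cerebella at postnatal day 3 was sequenced as stranded, poly-A selected libraries, per the labels' protocols. Each background has its own deposited table of estimated counts for Ensembl transcripts, lane by lane, and these values need not be whole. The submitters' processing notes list kallisto 0.42.4 and edgeR, and as builds mm9 and GRCm38, with no role for any. kallisto shares reads out among similar transcripts, which affects the counts of gene copies. Both tables hold the same transcript identifiers, but whether they were quantified against the same reference sequences was not tested.

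Lanes were added, transcripts were collapsed into 31517 genes after GENCODE M21 (build GRCm38; 92372 of 94080 identifiers matched), and sums were rounded. Unmatched identifiers held 0.771% to 0.992% of the counts of the 7 libraries. The libraries were scaled together by TMM and fitted with edgeR 4.0.16 in R 4.3.3 (default filter by group, robust quasi-likelihood F-test, Benjamini-Hochberg threshold 0.05, genotype as the only term). SE was computed from the log2 fold change and its F statistic (absolute value over root F). Fold changes are Bax/Bak controls over p53 controls. No 2 libraries of a group agreed within sampling noise (chi-square over its degrees of freedom 17.2 to 85.2). Counting precision is limited by 1 count in the shallowest library, 0.0233 CPM before TMM scaling.

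The members, the 27 gene lists and the naming rule were chosen with earlier results of these data known. Named genes are the engineered genes, the 15 largest rises and falls described in the text, up to 8 called p53 targets and up to 4 called members of every other list in order of p, or where none was called the first in that order, and up to 8 called genes within 10 Mb of Bak1, Bax and Trp53. Other members given with values were chosen after these were seen. A two-sided exact permutation of CPM served for the engineered genes. Shared sequence means the share of 31-base words that a gene has in common with other genes. The length and GC trend was a loess fit (span 0.3) per library, used as an offset. That fit and the sums over near-identical families were chosen after seeing the data. The other alternatives were scaling, filter, DESeq2 1.42.0, limma-voom (limma 3.58.1), no robust moderation, a threshold of 0.01, a joint fit of 16 libraries, 1 number series, removal of genes with shared sequence, and each library left out. The fit was tested on simulated data. The Atr-deleted p53 library of 13601 counts was left out except in one alternative. Promoters are from RefSeq. Some named genes and a sequence are not reported here. Tables were made in Python 3.11.15 (pandas 2.3.3, numpy 2.4.6, scipy 1.17.1), plots in matplotlib 3.10.9.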

Additional observations from a re-analysis of the deposited data

Results flagged for a closer look

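Of 128 named genes, 3 had 1 library far from the other 3 of the Bax/Bak controls by Dixon's ratio, a criterion that about 1 in 20 groups meets by accident. Cdh3 was at 8.11 CPM in replicate 1 against 3.78 to 4.44 CPM in the others. Stard4 was at 100.3 CPM in replicate 1 against 108 to 110 CPM. Rpl18 was at 254 CPM in replicate 4 against 225 to 227 CPM.

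For 5 named genes the controls and the Atr-deleted animals gave opposite, non-overlapping differences between the backgrounds. This difference between the pairs was not tested. The log2 fold change of Chek1 was 0.34 in the controls and -0.92 in the Atr-deleted pair, that of Hells, a chromatin remodeller of S phase, 0.41 and -0.51, and that of Anln 0.54 and -0.25. Gdf10, a growth factor of Bergmann glia, had -0.45 and 0.74, and Olig2 had -0.30 and 0.48. With the length and GC trend removed, the control value of Hells was 0.02 (edgeR adjusted p = 0.82), that of Chek1 0.20 (0.102) and that of Olig2 -0.20 (0.0867), none of them called, while Anln (0.41) and Gdf10 (-0.50) were called.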

How the results depend on the processing

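The 3370 called genes (1664 higher, 1706 lower) became 1233 (598 and 635) at a threshold of 0.01 and 1288 (579 and 709) with the length and GC trend removed. Leaving out single libraries gave 1710 to 3206 called genes, 805 to 1775 of them higher and 905 to 1431 lower. Over the other alternatives the count was 2432 (series 100019 only) to 4519 (DESeq2), and upper-quartile scaling gave 40.9% higher among the called genes against 49.4%. The p53 targets called higher were 6 instead of 10 with the trend removed and 8 to 11 without single libraries, and the microglial genes called lower were 10 to 12 without single libraries. With the trend removed, the share called near the loci was 15.9% (Bax), 9.14% (Bak1), 6.51% (Trp53) and 9.02% (Atr), and within 5 Mb of Bak1 it was 26.6% in the main analysis.

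For the engineered genes, differences of means without single libraries were -33.1 to -31.1 CPM (Bax), -40.1 to -38.1 (Bak1), 29.5 to 32.9 (Trp53) and 4.81 to 8.01 (Atr), and fewer libraries cannot give an exact p below 0.05. The Atr-deleted pair gave 7194 to 9093 called genes without single libraries. Of 2672 values of named genes under alternatives, 2418 were counted as the same, 243 lost the threshold and 7 gained it. The other 4 changed sign: Ncoa4 (0.09) and Gm12345 (-0.21) with counts summed over families, and Calb1 (-0.11) and Rpl18 (0.01) with the trend removed. Atr, which was called in neither fit and is not among these 4, also changed sign with the trend removed, from 0.23 to -0.11. Apart from the construction of these fits, the cause was not tested. Of 122 called named genes, 31 lost the call without some library.

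No paired analysis was possible because the replicate numbers follow the order of the samples and the labels pair no animals across the groups.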
